A study of Rattus norvegicus with 20 samples.

Results

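Carbonic anhydrases are zinc enzymes that interconvert carbon dioxide and bicarbonate, and they supply bicarbonate to carboxylating enzymes and help cells handle acid. Car3 is a cytosolic form with low hydratase activity that is abundant in skeletal muscle, fat and liver, and in rat liver it is known to be far more abundant in males than in females. Car2 is the high-activity cytosolic form of red blood cells and many other tissues, and Car8 is a carbonic anhydrase-related protein that lacks the catalytic activity and is known to bind the type 1 receptor of inositol trisphosphate (IP3), a calcium-releasing messenger. These 3 genes were described in the liver of rats fed soybean or casein. They were represented by every array feature (probe set) whose annotation names one of them: 2 for Car2, 2 for Car3 and 1 for Car8. That makes 5 of 27702 probe sets with values, and 3 of 13462 genes. The genes were chosen for earlier results on these same arrays, so their differences between diets are given as a description, with no test.

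Messenger RNA was measured in the livers of 20 male Sprague-Dawley rats on Affymetrix rat arrays, which probe transcripts near their 3′ end. The rats arrived at 4 weeks of age, adapted for 5 days on a commercial diet and then ate 1 of 4 diets for 21 days, with 5 separate rats per diet on arrays, each taken because its food intake was average for its group. Protein came in equal parts from casein and a conventional soybean cultivar (Fukuyutaka) in the conventional soybean diet, and in equal parts from casein and a high-isoflavone cultivar (Yukipirika) in the 1:1 high-isoflavone diet. The diet titled casein+high-isoflavone soybean was read as the one with 3 parts of casein to 1 part of Yukipirika, called the 3:1 high-isoflavone diet here, because the labels do not pair titles with diet codes. The control diet had casein, a milk protein, as its protein source at 200 g per kg. All soybean diets therefore also contained casein, and isoflavones, the plant compounds by which the cultivars were named, bind estrogen receptors. The series asks how dietary soybeans and their isoflavone content affect liver messenger RNAs.

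Array medians were 2.51 to 2.56 on conventional soybean, 2.43 to 2.52 on the 3:1 and 2.45 to 2.57 on the 1:1 high-isoflavone diet, and 2.43 to 2.49 on casein (log2 signal). Thus the medians of the conventional soybean and casein arrays did not overlap, although the median difference over all probe sets was 0.06. RNA integrity was read from beta-actin, whose signal at the 3′ end exceeded that at the 5′ end by 1.07 to 2.13 over the 20 arrays (log2), with all diets overlapping. Replicate 1 of the 3:1 diet and casein replicate 5 had a higher signal floor than the other arrays, at 0.142 and 0.134 log10. Alb, the main secreted protein of hepatocytes, had a median percentile of 99.98 among the probe sets of an array, so the defining marker of the labelled tissue was present. Values below are log2 signals, where a difference of 1 is a 2-fold change, and percentiles are only a guide to how bright a probe set is, since levels cannot be compared between probe sets.

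Car3 gave a bright signal in these livers and was higher on each soybean diet than on casein. Its brighter probe set lay at a median percentile of 99.9 of all probe sets on an array. It read 9.89, 10.15, 9.91, 10.27 and 9.95 in the 5 conventional soybean rats, 9.88, 9.67, 9.61, 10.25 and 9.46 in the 3:1 high-isoflavone rats and 10.29, 9.76, 9.83, 10.24 and 9.38 in the 1:1 high-isoflavone rats, against 9.31, 8.83, 8.86, 8.78 and 8.57 in the casein rats. Every soybean-fed rat was above every casein-fed rat, the closest being 1:1 high-isoflavone replicate 5 and casein replicate 1. The group means were 10.03 ± 0.165, 9.77 ± 0.306 and 9.90 ± 0.377 on the soybean diets in the same order, against 8.87 ± 0.271 on casein (SD, n = 5). Conventional soybean exceeded casein by 1.16, the 3:1 diet by 0.90 and the 1:1 diet by 1.03 (SE 0.165 each), which are 2.24-fold, 1.87-fold and 2.04-fold.

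The dimmer Car3 probe set showed the same order of diets with larger differences. It read 8.21, 8.54, 8.45, 8.84 and 8.44 on conventional soybean, 8.11, 7.66, 7.77, 8.75 and 7.55 on the 3:1 diet and 8.79, 8.00, 8.20, 8.94 and 7.43 on the 1:1 diet, against 7.39, 6.72, 6.79, 6.71 and 6.42 on casein. Again no soybean-fed rat overlapped a casein-fed rat, although 1:1 replicate 5 and casein replicate 1 were only just apart. The differences were 1.69, 1.16 and 1.47 (SE 0.249), that is 3.23-fold, 2.24-fold and 2.77-fold. Only 6, 13 and 13 of the 27702 probe sets had a larger positive difference in these comparisons. For the brighter probe set, the corresponding numbers were 44, 46 and 63. The same casein arrays serve all 3 comparisons, so these are not independent of each other.

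Car8 was also higher on every soybean diet, by a smaller amount. Its probe set read 4.58, 4.80, 4.69, 4.52 and 4.85 on conventional soybean, 4.73, 4.73, 4.68, 5.37 and 4.70 on the 3:1 diet and 4.90, 4.67, 4.34, 4.76 and 5.02 on the 1:1 diet, against 4.19, 4.11, 3.92, 4.02 and 4.19 on casein. All soybean-fed rats lay above all casein-fed rats, with the smallest gap between 1:1 replicate 3 and casein replicates 1 and 5. Means were 4.69 ± 0.142, 4.84 ± 0.297 and 4.74 ± 0.257 on the soybean diets, against 4.09 ± 0.117 on casein (SD, n = 5). The differences were 0.60 (1.52-fold), 0.76 (1.69-fold) and 0.65 (1.57-fold), with an SE of 0.132. The 3:1 value includes replicate 4, which stood apart at 5.37, and without that rat the 3:1 diet still exceeded casein by 0.62. Car8 has 1 probe set, so no second one could be set beside it.

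Car2 differed little between diets and was dim. Its brighter probe set lay at a median percentile of 43.0. It read 2.35, 1.98, 2.90, 2.73 and 2.11 on conventional soybean, 2.09, 2.31, 2.53, 2.13 and 2.48 on the 3:1 diet and 2.56, 2.38, 2.02, 2.22 and 2.25 on the 1:1 diet, against 2.28, 2.43, 2.18, 2.29 and 2.63 on casein. All groups overlapped, and the differences from casein were 0.05, -0.05 and -0.07 (SE 0.157). The first of these changed sign after quantile normalization, at -0.01. Over single omitted arrays the first ranged over -0.07 to 0.16 and the second over -0.11 to 0.01, so neither sign is settled.

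The dimmer Car2 probe set had a median percentile of 21.7 and differed more, downward. It read 1.56, 1.26, 2.36, 2.06 and 1.22 on conventional soybean, 1.49, 1.79, 2.33, 1.13 and 2.02 on the 3:1 diet and 1.76, 1.38, 1.5, 1.67 and 1.5 on the 1:1 diet, against 1.79, 1.97, 1.82, 2.09 and 2.20 on casein. The 1:1 rats all lay below the casein rats, by a narrow gap, while the other soybean groups overlapped casein. The differences were -0.28, -0.22 and -0.41 (SE 0.213). The sign of Car2 on conventional soybean thus depends on the probe set.

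**Figure D1:**
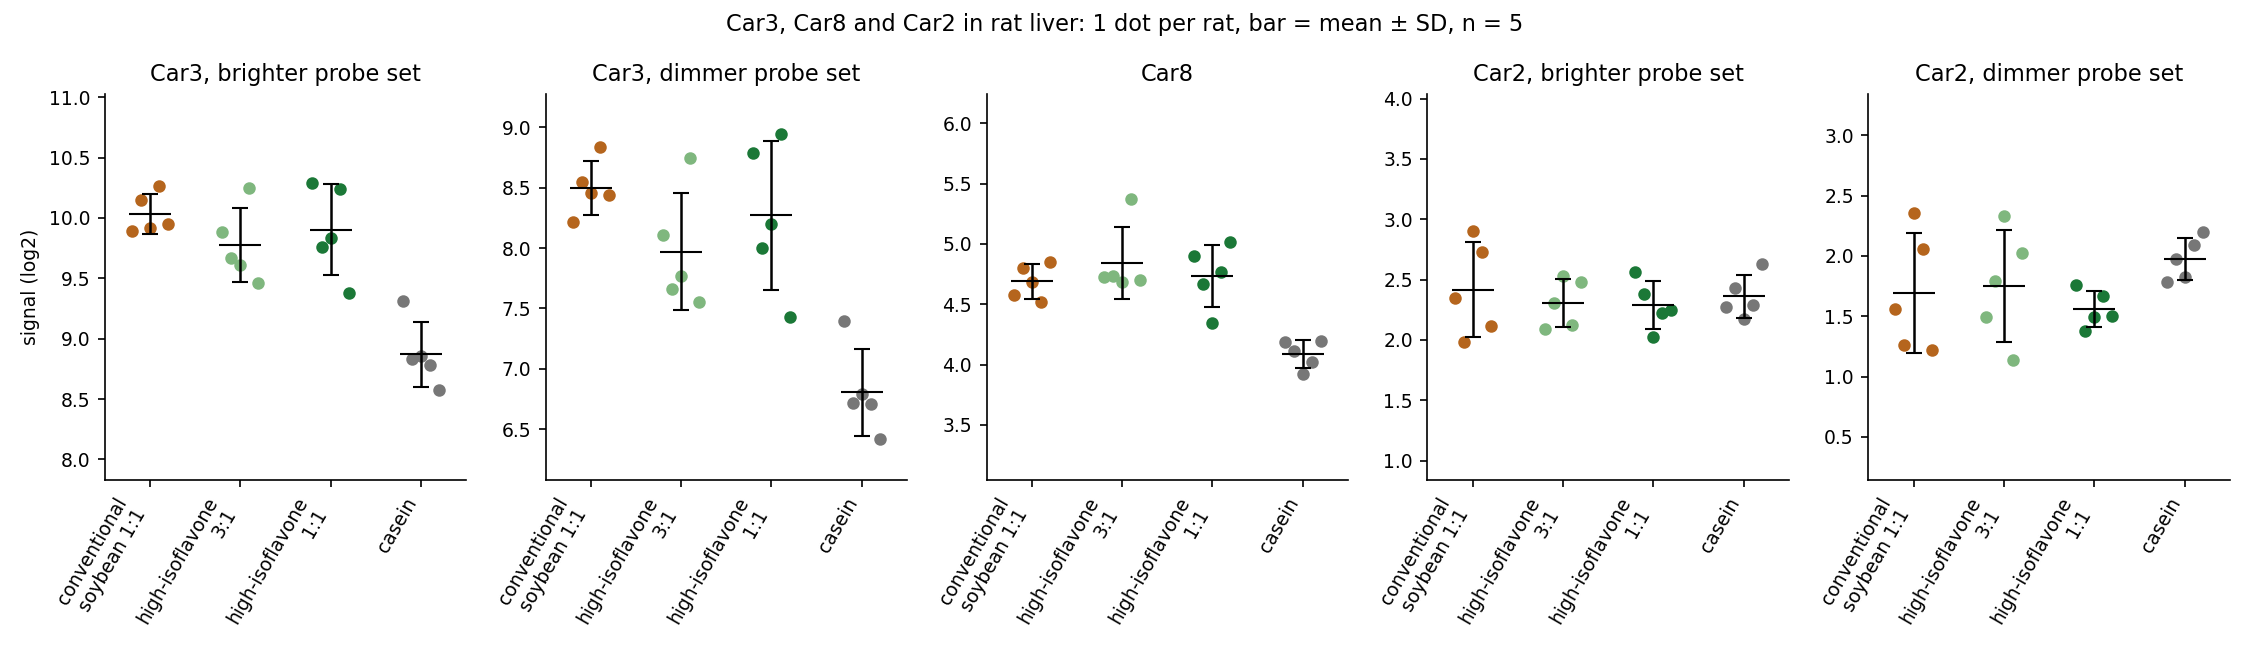
Log2 signal of each probe set of Car3, Car8 and Car2 (1 panel each, all axes spanning the same number of log2 units) in the 4 diets. Dots are single rats and bars are the mean ± SD of 5 rats. In both Car3 panels and the Car8 panel every soybean-fed rat lies above every casein-fed rat, while the Car2 panels overlap except for the 1:1 high-isoflavone rats at the dimmer probe set.

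How these values stand in the whole array was read from limma's test, with Benjamini-Hochberg adjustment over all probe sets. At an adjusted p under 0.05, 1.64% of probe sets were called between conventional soybean and casein, 1.01% higher and 0.621% lower. Between the 3:1 diet and casein the share was 0.0397%, with 0.0217% higher and 0.018% lower, and between the 1:1 diet and casein it was 2.21%, with 1.14% higher and 1.07% lower. The balance of directions turned with the scaling: the share of calls that were higher was 62.0% on conventional soybean as deposited, 35.4% after quantile normalization and 25.1% after centring and scaling of the arrays. It was 54.5%, 28.6% and 16.7% on the 3:1 diet and 51.7%, 38.6% and 27.6% on the 1:1 diet. Of the 5 probe sets of Car2, Car3 and Car8, 3 were among those called on conventional soybean, 2 on the 3:1 diet and 3 on the 1:1 diet. Groups that did not overlap, with the soybean rats higher, made up 2.97% of all probe sets on conventional soybean, 1.09% on the 3:1 diet and 2.38% on the 1:1 diet, and 3 of these 5 probe sets in each. Nothing is read from these counts, because the genes were picked from these comparisons.

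The soybean diets were also set against each other. For Car3 the 1:1 high-isoflavone diet differed from conventional soybean, which has the same share of soybean protein, by -0.13 at the brighter probe set (SE 0.165) and -0.23 at the dimmer (SE 0.249). For Car8 that difference was 0.05 (SE 0.132), and for Car2 it was -0.13 at both probe sets (SE 0.157 and 0.213). None exceeded its SE, and the groups overlapped for all 5 probe sets. In this comparison 0.0758% of all probe sets were called, and 0 of the 5. Between the 1:1 and the 3:1 high-isoflavone diets Car3 differed by 0.13 and 0.30, Car8 by -0.11, and Car2 by -0.02 at the brighter and -0.19 at the dimmer probe set, with the same SEs and overlapping groups. With SEs of this size, these values do not show that the soybean diets acted alike.

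At the probe sets of highest mean the remaining carbonic anhydrases differed less from casein than Car3 and Car8 did. Nothing is read from that gap, because Car3 and Car8 were chosen for earlier results on these same arrays, and it was not tested. Of 13 further family genes listed, 11 were measured, with 16 probe sets; Car13 and Car15 were not analysed here. With each gene represented by its probe set of highest mean, 1 gene rose on conventional soybean and none passed on the other diets or between the 1:1 diet and conventional soybean. At an unadjusted p under 0.05 the counts were 5 genes on conventional soybean, 3 on the 3:1 diet and 5 on the 1:1 diet. Between the cultivars the count was 0. Of all 27702 probe sets, 4665, 2249 and 4641 had an unadjusted p under 0.05 on these diets, and 1959 between the cultivars. Whether the family differed from that background was not tested. The median difference of the 11 genes was 0.26 on conventional soybean, 0.04 on the 3:1 diet and 0.19 on the 1:1 diet, where the medians over all genes were 0.04, 0.01 and 0.03.

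The mitochondrial forms supply bicarbonate inside hepatocyte mitochondria for the urea cycle and pyruvate carboxylation. Car5b was the gene that rose: its brighter probe set read 3.75, 3.55, 3.80, 3.65 and 3.61 on conventional soybean, against 3.54, 2.98, 3.30, 3.08 and 3.23 on casein. The conventional soybean rats lay just above the casein rats, and the difference was 0.44 (SE 0.104, adjusted p = 0.0346 in limma). Its dimmer probe set differed by 0.23 (adjusted p = 0.427). The call was lost after quantile normalization (adjusted p = 0.0664) and when any 1 of 8 arrays was left out, namely casein replicates 2 to 5 and conventional soybean replicates 1, 3, 4 and 5 (highest 0.0905). On the 3:1 and 1:1 diets the brighter probe set differed from casein by 0.17 (adjusted p = 0.732) and 0.29 (adjusted p = 0.155). Car5a, the form best known from liver, differed by 0.26, -0.15 and 0.02 (SE 0.154), with adjusted p values of 0.399, 0.884 and 0.972.

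Among the membrane-bound forms, Car14, a transmembrane enzyme with its active site outside the cell, was the one closest to passing. Its brighter probe set averaged 4.46 ± 0.162 on conventional soybean, 4.37 ± 0.15 on the 3:1 diet and 4.42 ± 0.386 on the 1:1 diet, against 3.97 ± 0.128 on casein (SD, n = 5). These differences of 0.49, 0.40 and 0.44 (SE 0.14) did not pass (adjusted p = 0.0781, 0.434 and 0.103). The dimmer Car14 probe set rose by 0.52 on conventional soybean (SE 0.121, adjusted p = 0.0329) and by 0.55 on the 1:1 diet (adjusted p = 0.0175), and differed by 0.44 on the 3:1 diet (adjusted p = 0.235). It read 3.04, 3.15, 3.29, 2.94 and 3.26 on conventional soybean, 2.99, 3.03, 2.98, 3.08 and 3.17 on the 3:1 diet and 3.44, 3.15, 2.71, 3.49 and 3.03 on the 1:1 diet, against 2.75, 2.63, 2.63, 2.56 and 2.48 on casein. The conventional soybean and 3:1 rats lay above all casein rats, and 1 rat of the 1:1 diet lay within the casein range. The call on conventional soybean was lost without any 1 of 7 arrays, casein replicates 2 to 5 and conventional soybean replicates 2, 3 and 5 (highest adjusted p = 0.0885), after quantile normalization (0.0526), after centring and scaling of the arrays (0.0522) and without the 2 higher-floor arrays (0.0987). That on the 1:1 diet was lost without casein replicate 5 (0.0521) or 1:1 replicate 4 (0.0573), with only the compared arrays in the fit (0.0720), without replicate 1 of all diets (0.0662) and without the 2 higher-floor arrays (0.0613).

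Car4, a lipid-anchored surface enzyme, differed from casein by 0.31, -0.15 and 0.19 on the conventional, 3:1 and 1:1 diets (SE 0.165). Car9 and Car12, transmembrane enzymes best known from tumours, differed by -0.16, -0.25 and 0.03 (SE 0.149) and by 0.03, -0.23 and 0.07 (SE 0.175). Car6, the secreted form of saliva, differed by 0.06, 0.06 and 0.19 (SE 0.235). None of these passed, with adjusted p values of at least 0.353 at the probe sets of highest mean, and all 4 lay below the median percentile of an array.

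Car7, another cytosolic form, had negative differences on all 3 soybean diets. It averaged 2.68 ± 0.115, 2.64 ± 0.322 and 2.53 ± 0.259 on the conventional, 3:1 and 1:1 diets, against 3.02 ± 0.218 on casein (SD, n = 5). The differences were -0.35, -0.38 and -0.49 (SE 0.147), and none passed (adjusted p = 0.233, 0.497 and 0.0843). Car1, the abundant red cell form, differed by 0.17, 0.04 and -0.07 (SE 0.209). In the order of genes in the RefSeq annotation Car2, Car3, Car1 and Car13 follow one another on a chromosome, and Car8 lies elsewhere. Of the 3 measured genes of that row only Car3 differed from casein by more than its SE on any soybean diet at the probe set of highest mean.

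The acatalytic relatives Car10 and Car11 resemble Car8 in lacking the active site. Car11 differed by 0.36, 0.21 and 0.33 on the conventional, 3:1 and 1:1 diets (SE 0.098, adjusted p = 0.0666, 0.589 and 0.0839) and Car10 by 0.31, 0.06 and 0.31 (SE 0.118, adjusted p = 0.179, 0.945 and 0.172). The other Car11 probe sets were also positive on every soybean diet, by 0.07 to 0.45, and none passed (lowest adjusted p = 0.0543).

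**Figure D2:**
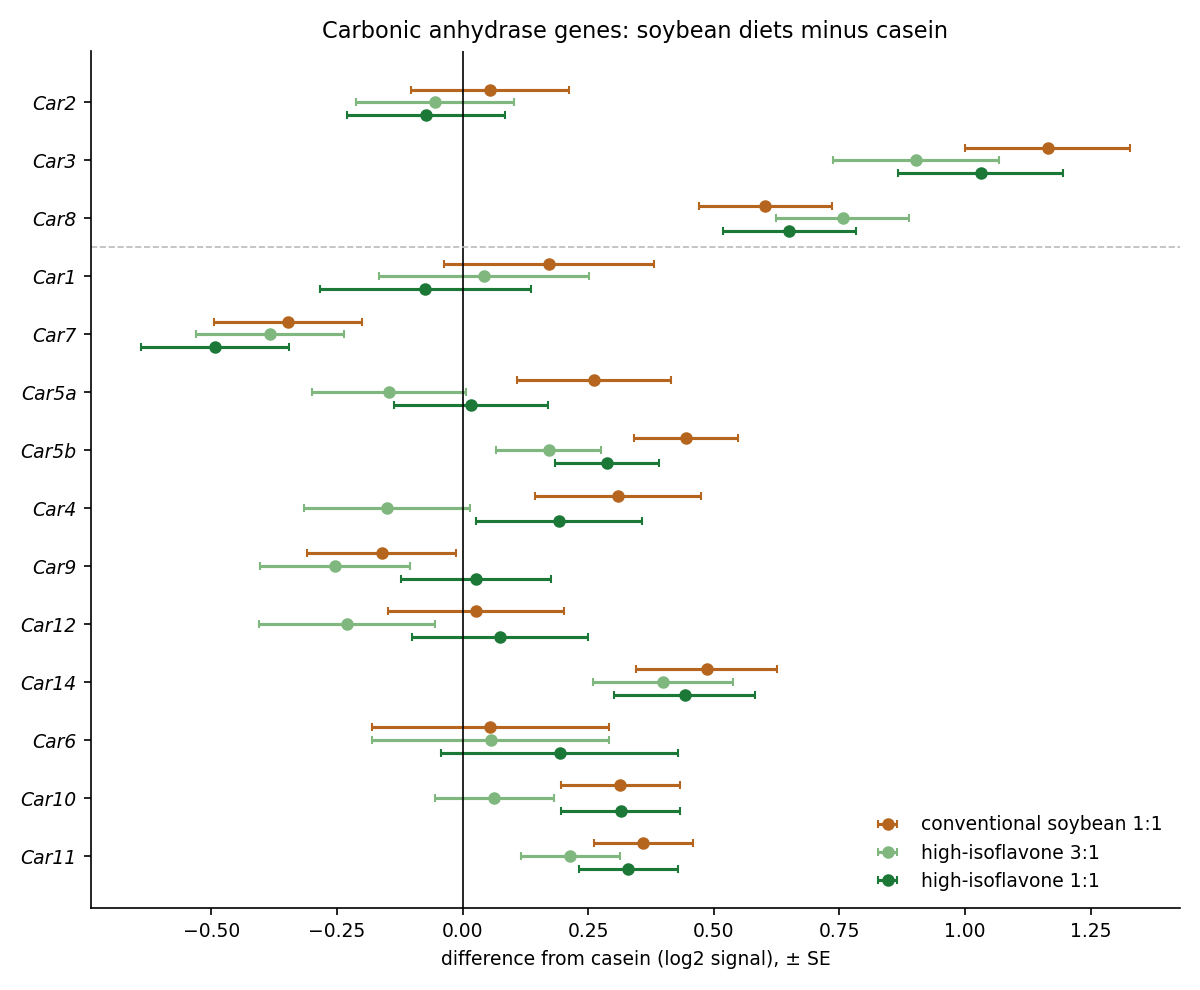
Difference from casein in log2 signal for the 14 measured carbonic anhydrase genes, each by its probe set of highest mean. Points are the difference of means and bars its SE from the fit over all arrays. Car2, Car3 and Car8 were chosen for earlier results on these same arrays. Car3 lies between 0.90 and 1.16 and Car8 between 0.60 and 0.76, above the dashed line with Car2, and the other 11 genes lie between -0.49 and 0.49.

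Whether the 3 genes varied together from rat to rat was asked after each diet mean was removed, which the choice of genes did not use. The 2 probe sets of Car3 did so closely (r = 0.980, rho = 0.947, 20 rats), and so did those of Car2 (r = 0.853, rho = 0.833). The correlation of Car3 and Car8 did not pass: Pearson r was 0.279 and Spearman rho 0.188, with permutation p of 0.328 and 0.467 within diets, or 0.645 and 0.632 after adjustment over the 3 pairs. Within the 3:1 diet alone r was 0.885, where replicate 4 was highest in both genes, and without the 2 rats farthest from the median of Car3 the r over the remaining rats was -0.16. Car2 and Car3 had r = -0.172 and rho = -0.343 (permutation p = 0.430 and 0.145, adjusted 0.645 and 0.436). Car2 and Car8 had r = -0.101 and rho = -0.125 (permutation p = 0.663 and 0.632, adjusted 0.663 and 0.632). Of 33 further relations of the 3 genes with the other 11 family genes, 1 had an unadjusted permutation p under 0.05 and 0 passed after adjustment.

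The genes whose rat-to-rat pattern was most like that of Car3 were sought among 10149 probe sets with 1 gene symbol and above-median signal. This is a description over 20 rats on shared arrays. The closest, with r = 0.980, was a probe set annotated as Gdf11, which encodes a secreted TGF-beta relative. Then came Ctsc, a lysosomal protease (0.841), Cfi, complement factor I (0.826), and the phosphate and urate transporters Slc17a1 (0.806) and Slc17a3 (0.786). The most opposite were Egln1, an oxygen-sensing prolyl hydroxylase (-0.865), Pex5, the import receptor of peroxisomes (-0.824), and Slc20a1, a phosphate transporter (-0.815). Of all 27702 probe sets only 2 had an r above 0.9 with Car3's brighter probe set: Car3's dimmer one and the one annotated Gdf11.

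The probe set annotated Gdf11 read 3.28, 3.60, 3.37, 4.30 and 3.46 on conventional soybean, 3.04, 2.49, 2.21, 3.59 and 1.86 on the 3:1 diet and 4.14, 2.73, 2.89, 3.76 and 2.04 on the 1:1 diet, against 2.32, 1.16, 1.53, 1.29 and 0.73 on casein. In each diet the rat with the highest value was also the highest for Car3 at the brighter probe set. On the conventional, 3:1 and 1:1 diets 5, 3 and 4 of the 5 rats lay above all casein rats, so the high-isoflavone groups overlapped casein. The differences from casein were 2.20, 1.23 and 1.71 (SE 0.362), given with no test because the probe set was picked through Car3. All 5 casein values lay below the median signal of their array, where a difference is less certain, and the mean over 20 rats that admitted the probe set to the search rests on the soybean groups. Of the 2 probe sets annotated Gdf11, the other has no value on any array, so whether this signal is Gdf11 messenger RNA was not tested.

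**Figure D3:**
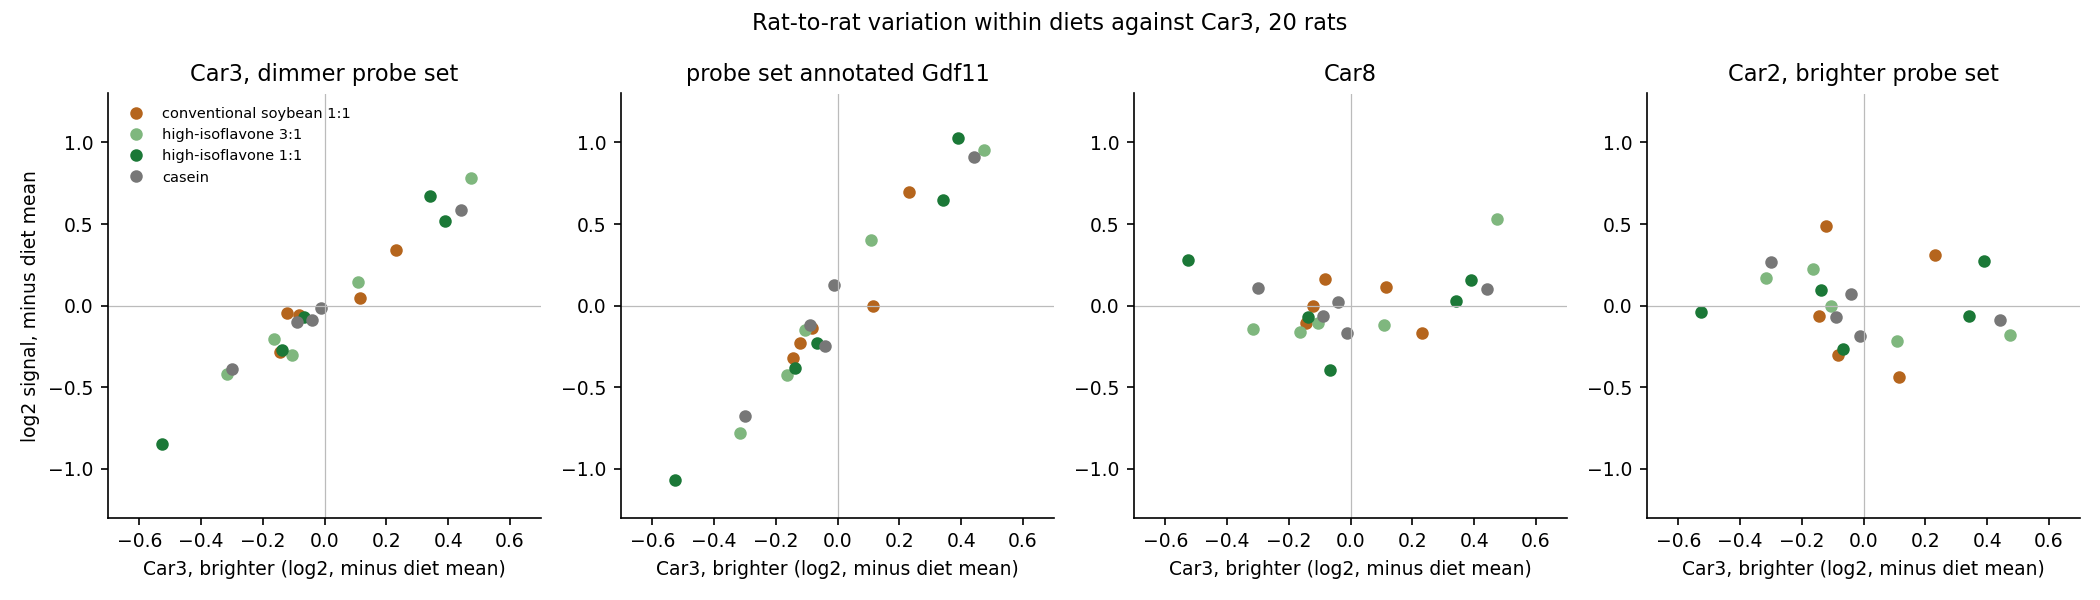
Log2 signal minus the mean of its diet for the brighter Car3 probe set (horizontal) and for the dimmer Car3 probe set, the probe set annotated Gdf11, Car8 and the brighter Car2 probe set (vertical, 1 panel each), 1 dot per rat, coloured by diet. The first 2 panels form tight lines (r = 0.980 each), while the Car8 and Car2 panels scatter (r = 0.279 and -0.172).

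For Car8 the closest patterns were those of Tlcd4 and Gch1, the first enzyme of tetrahydrobiopterin synthesis (both r = 0.778), Mia3, which helps export large cargo such as collagen (0.759), Pdgfra, a growth factor receptor (0.752), and Cggbp1 (0.728). The most opposite were Pgk1, a glycolytic kinase (-0.770), Wdr25 (-0.747) and Rab7a, a late endosome GTPase (-0.740). For Car2 they were Auh, an enzyme of leucine breakdown (0.742), Dck, a nucleoside kinase (0.728), Ncr3 (0.689), Kcnh3, a potassium channel (0.683), and Psg29 (0.673), with Mlc1 (-0.822), Elmo3 (-0.734) and Ak4, an adenylate kinase (-0.718), at the other end. These are the extremes of 10149 correlations over 20 rats.

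Enzymes that consume bicarbonate were next read as a group. This list and those below were chosen with earlier results of these data known. On the conventional, 3:1 and 1:1 diets 1.01%, 0.0217% and 1.14% of all probe sets were called higher. The shares called lower were 0.621%, 0.018% and 1.07%. The medians over all genes were 0.04, 0.01 and 0.03. Whether any list departed from these values was not tested. Of 9 measured genes 2 fell on conventional soybean, 0 passed on the 3:1 diet and 2 fell on the 1:1 diet, with median differences of 0.10, 0.04 and 0.04. Acacb, the acetyl-CoA carboxylase that regulates fatty acid oxidation, averaged 2.68 ± 0.101 on conventional soybean, 3.05 ± 0.255 on the 3:1 diet and 2.60 ± 0.163 on the 1:1 diet, against 3.49 ± 0.231 on casein (SD, n = 5). It fell by 0.80 on conventional soybean (SE 0.126, adjusted p = 0.00317) and by 0.89 on the 1:1 diet (adjusted p = 0.000618), and differed by -0.44 on the 3:1 diet (adjusted p = 0.260). Acaca, the carboxylase of fatty acid synthesis, fell by 1.24 on both of those diets at its brighter probe set (SE 0.269, adjusted p = 0.0246 on conventional soybean and 0.0171 on the 1:1 diet), and differed by -1.07 on the 3:1 diet (adjusted p = 0.178). Its dimmer probe set differed by -0.00, 0.04 and 0.02 on the conventional, 3:1 and 1:1 diets. The first call was lost without any 1 of casein replicates 2 to 5 and conventional soybean replicates 3 and 5 (highest adjusted p = 0.0628), and the second without 1:1 replicate 2 (0.0561). Cps1, which feeds bicarbonate into the urea cycle, differed by 0.11, 0.04 and 0.17, and Pc, pyruvate carboxylase, by -0.36, -0.29 and -0.05 on the conventional, 3:1 and 1:1 diets, and neither passed.

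Of 15 measured transporters of bicarbonate and acid, 1 rose on conventional soybean, 0 passed on the 3:1 diet and 1 rose on the 1:1 diet. Their medians were 0.03, 0.01 and 0.05, against 0.04, 0.01 and 0.03 over all genes. Both calls were Slc16a7, a carrier of monocarboxylates such as lactate. It averaged 3.53 ± 0.0717 on conventional soybean, 3.53 ± 0.202 on the 3:1 diet and 3.75 ± 0.218 on the 1:1 diet, against 3.05 ± 0.204 on casein (SD, n = 5). It rose by 0.48 on conventional soybean (SE 0.119, adjusted p = 0.0425) and by 0.70 on the 1:1 diet (adjusted p = 0.00278). The first call was lost after quantile normalization (0.0926) and without any 1 of casein replicates 2 to 5, the 5 conventional soybean arrays and 3:1 replicates 2 and 3 (highest 0.108).

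Of 15 genes of IP3 receptors and IP3 turnover, the setting of Car8's best known partner, none was called in any comparison, with medians of 0.06, 0.03 and 0.10. Itpr1, the receptor type that Car8 binds, differed by 0.05, 0.03 and -0.02 on the conventional, 3:1 and 1:1 diets (adjusted p = 0.850, 0.973 and 0.957). Itpr2, another IP3 receptor of liver, differed by 0.01, -0.02 and -0.02. Median percentiles in this list ran from 11.9 to 82.6, with Itpr1 at 51.3, and differences at dim probe sets are less certain.

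Because Car3 is male-predominant in rat liver, other such genes were set beside it. This list too was chosen with earlier results of these data known, so nothing about Car3 is read from its calls. Of all probe sets 1.01%, 0.0217% and 1.14% were called higher on the conventional, 3:1 and 1:1 diets. The medians over all genes were 0.04, 0.01 and 0.03. Of 8 measured male-predominant genes 3 rose on conventional soybean, 0 passed on the 3:1 diet and 3 rose on the 1:1 diet, with medians of 0.55, 0.54 and 0.52. The genes were the cytochromes P450 Cyp3a18 and Cyp2c13 and the urinary protein Mup5, whose probe sets can share signal with near-identical family members. Cyp3a18 rose by 1.02 on conventional soybean (SE 0.256, adjusted p = 0.0462) and by 1.14 on the 1:1 diet (adjusted p = 0.0208). Cyp2c13 rose by 0.54 (SE 0.130, adjusted p = 0.0394) and 0.71 (adjusted p = 0.00496), and Mup5 by 0.70 (SE 0.135, adjusted p = 0.0120) and 0.54 (adjusted p = 0.0388). On the 3:1 diet Cyp3a18 differed by 0.67, Cyp2c13 by 0.58 and Mup5 by 0.53, and none passed (adjusted p = 0.489, 0.122 and 0.192). Cyp2c11, the best known male-specific P450 of rat liver, differed by -0.03, -0.16 and -0.14 on the conventional, 3:1 and 1:1 diets, and Cyp2a2 by -0.20, 0.01 and -0.24, and neither passed. Cyp3a2 differed by 1.01, 0.85 and 0.73 and Hsd3b5 by 0.56, 0.55 and 0.49, and neither passed (lowest adjusted p = 0.0622). On each soybean diet 6 of the 8 genes lay above 0 and 2 below. The call of Cyp3a18 on conventional soybean was lost without any 1 of 14 arrays (all 5 of conventional soybean, casein replicates 1, 2, 4 and 5, 3:1 replicates 1 and 2, and 1:1 replicates 2, 3 and 4; highest adjusted p = 0.123), and that on the 1:1 diet without casein replicates 1, 4 or 5 or 1:1 replicates 2 or 4 (highest 0.067). That of Cyp2c13 on conventional soybean was lost without any 1 of casein replicates 1, 2, 4 and 5 and conventional soybean replicates 1, 3, 4 and 5 (highest 0.102), and that of Mup5 on the 1:1 diet without any 1 casein array or 1:1 replicates 2, 3 or 4 (highest 0.104). After centring and scaling of the arrays, Mup5 on conventional soybean (0.0666) and Cyp2c13 on the 1:1 diet (0.0549) were also not called. None of 7 female-predominant genes was called, with medians of -0.02, 0.05 and -0.06.

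By zone of the liver lobule, none of 14 pericentral genes was called (medians 0.07, -0.06 and 0.03). The medians over all genes were 0.04, 0.01 and 0.03. Of 11 periportal genes 1 fell on conventional soybean, 0 passed on the 3:1 diet, and 1 rose and 1 fell on the 1:1 diet (medians 0.01, 0.04 and 0.02). Hal, which breaks down histidine, rose by 0.67 on the 1:1 diet (SE 0.134, adjusted p = 0.00978). It differed by 0.50 on conventional soybean and by 0.69 on the 3:1 diet, which did not pass (adjusted p = 0.0620 and 0.0616). Aldh1b1, a mitochondrial aldehyde dehydrogenase, fell by 1.59 on conventional soybean (SE 0.402, adjusted p = 0.0474) and by 1.78 on the 1:1 diet (adjusted p = 0.0212), and differed by -0.92 on the 3:1 diet (adjusted p = 0.565). The first call was lost without any 1 of 14 arrays (the 5 casein arrays, conventional soybean replicates 1, 3, 4 and 5, 3:1 replicates 1, 2 and 3, and 1:1 replicates 3 and 4; highest adjusted p = 0.113), and the second without casein replicate 5 (0.0634) or 1:1 replicate 2 (0.0758). Between the 1:1 diet and conventional soybean no gene of any of these lists was called.

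Markers of tissues that themselves hold much Car3 or Car2 were read beside these genes. In bulk liver, fewer cells of a type and less RNA per cell cannot be told apart. For 13 skeletal muscle markers the summed linear signal was 252 to 322 on conventional soybean, 230 to 398 on the 3:1 diet and 311 to 336 on the 1:1 diet, against 246 to 344 on casein. None was called, 4 were below the median signal of all probe sets, and 8, 11 and 12 of the 13 lay above 0 on the conventional, 3:1 and 1:1 diets. The marker Myh1, with a mean of 7.69 (log2) and percentiles of 98.6 to 99.4, made up most of the sum. The sum therefore says little about the dimmer markers. Acta1, the skeletal muscle actin, varied widely within the 3:1 diet, at 2.02, 3.89, -0.14, 3.49 and 4.94. The 3:1 rat with Acta1 at -0.14, the lowest of all 20, had Car3 at 9.61, above all casein rats, and the one at 4.94, the highest, had the lowest Car3 of its diet, 9.46. Casein replicates 4 and 5, with Acta1 at 3.28 each, had Car3 at 8.78 and 8.57. Other rats went the other way. In 3:1 replicate 4 Acta1 was 3.49 and Car3 was the highest of its diet, at 10.25. In 1:1 replicate 4 they were 3.18 and 10.24. These rats were picked after their values were seen, and the part of muscle in the Car3 values was not tested.

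**Figure D4:**
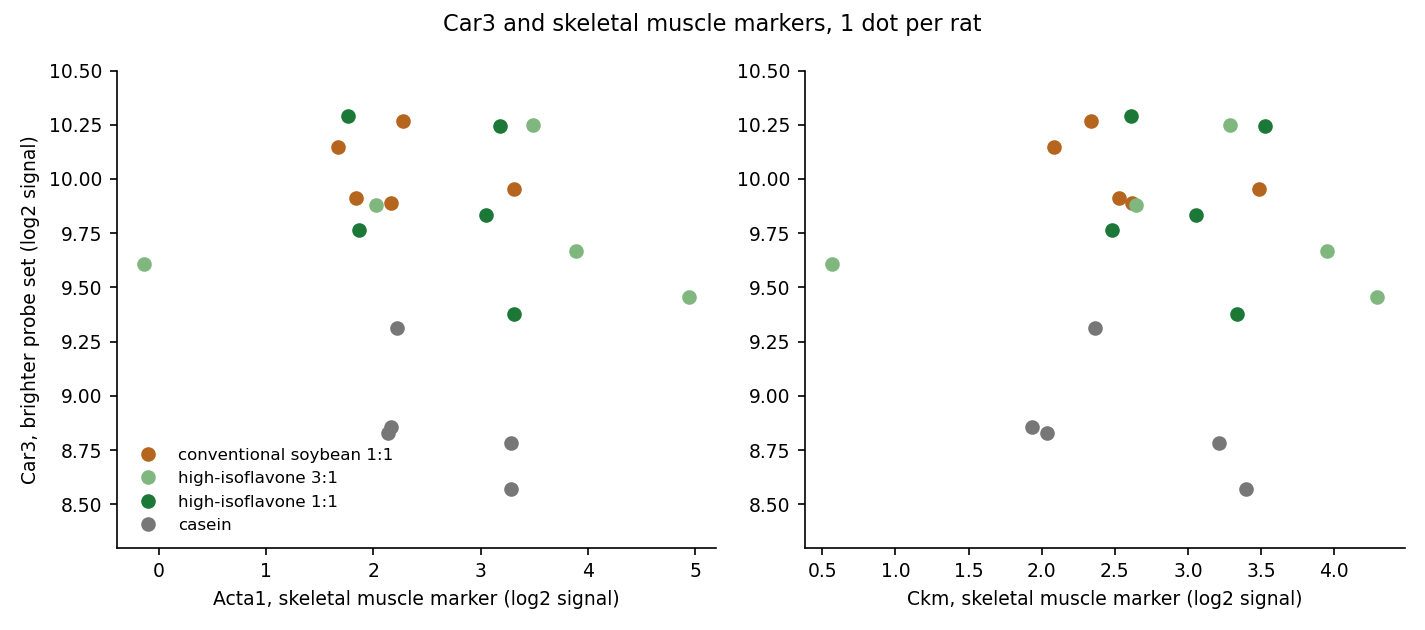
Car3 at its brighter probe set (vertical, log2 signal) against the skeletal muscle markers Acta1 and Ckm (horizontal, log2 signal), 1 dot per rat, coloured by diet. The lowest and highest Acta1 values, -0.14 and 4.94, are both of 3:1 rats, with Car3 at 9.61 and 9.46. The 3:1 rat with the highest Car3 of its diet, 10.25, has Acta1 at 3.49. The part of muscle in the Car3 values was not tested.

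Of 9 adipose markers listed, 5 were measured, and their sum was 47.3 to 52.0 on conventional soybean, 46.3 to 56.2 on the 3:1 diet and 46.9 to 54.1 on the 1:1 diet, against 44.4 to 64.1 on casein. On the conventional, 3:1 and 1:1 diets 2, 3 and 2 of the 5 adipose markers lay above 0 (medians -0.02, 0.11 and -0.06). The lipid droplet protein Plin1, dim at a median percentile of 23.9, differed by -0.02, 0.38 and 0.51 and did not pass. Cfd, the complement protease adipsin, fell by 0.64 on the 1:1 diet (adjusted p = 0.0334). For red blood cells, 6 of 12 listed markers were measured, none was called, and the sum was 289 to 460 on conventional soybean, 329 to 380 on the 3:1 diet and 252 to 425 on the 1:1 diet, against 306 to 435 on casein. Hbb, the beta globin, lay at a median percentile of 99.5. The part of these tissues in the Car3 and Car2 values was not tested.

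Other cell types were read from their marker lists. Of 9 hepatocyte markers 1 fell on conventional soybean and on the 1:1 diet, the tyrosine aminotransferase Tat (-1.20, adjusted p = 0.0487, and -1.25, adjusted p = 0.0331). On each soybean diet 5 of these 9 lay above 0. Of 6 bile duct markers 1 fell on the same diets, the adhesion protein Epcam (-0.71, adjusted p = 0.0257, and -0.95, adjusted p = 0.00251), and 5 of the 6 were below the median signal of all probe sets. Of these bile duct markers 3, 4 and 4 of 6 lay above 0 on the conventional, 3:1 and 1:1 diets (medians -0.01, 0.03 and 0.03). How the calls of Tat, Epcam and Cfd fare with arrays left out or other normalizations is not reported here. None was called among 8 macrophage, 6 endothelial, 8 stellate cell, 8 lymphocyte and 6 pancreas markers. Of the macrophage markers 7, 8 and 8 of 8 lay below 0 on the conventional, 3:1 and 1:1 diets (medians -0.14, -0.09 and -0.32). Of the lymphocyte markers 8, 6 and 7 of 8 lay above 0 (medians 0.23, 0.09 and 0.14), and of the pancreas markers 6, 4 and 3 of 6 (medians 0.24, 0.06 and 0.01).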

How the data were processed

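The authors deposited 1 table of values for 20 arrays, normalized with the SuperNORM data service per the labels, with no version in the sources used here. The deposited values were read as log10 signal, a base inferred from 9 spike-in probe sets (slope 0.997, SD 0.0242 over 20 arrays), and multiplied by 3.3219 to give log2. Of 31099 probe sets, 57 controls and 3342 without any value were left out (2 were both). Symbols came from the platform annotation, updated through gene IDs for 19086 of 19147 probe sets with 1 symbol. Limma 3.58.1 in R 4.3.3 was fitted over all 20 arrays with 1 mean per diet and eBayes with a trend, two-sided, adjusted by Benjamini-Hochberg over 27702 probe sets, and tested on simulated data. Printed SEs are from this fit. Correlations used 100000 permutations within diets (scipy 1.17.1). Arrays have no read depth, and their number limits the precision.

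The genes Car2, Car3 and Car8, and the lists, were chosen with earlier results of these data known. Named genes were all carbonic anhydrases, up to 4 called genes of each context list by size of difference, and for each of the 3 genes the 5 highest and 3 lowest correlations, with a gene represented by its probe set of highest mean. The named markers Alb, Tat, Epcam, Cfd, Plin1, Acta1, Ckm, Myh1 and Hbb were chosen after their values were seen. So were the uncalled list genes Cps1, Pc, Itpr1, Itpr2, Cyp2c11, Cyp2a2, Cyp3a2 and Hsd3b5. Lists were described by counts and medians. Alternatives were other normalizations, fits, filters and omitted arrays. Separate rats are given by the labels, so p-values measure the spread between the rats on arrays, which were taken for average food intake. Whether that matches the spread of all rats on a diet was not tested.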

Additional observations from a re-analysis of the deposited data

Results flagged for a closer look

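Within each diet, a rat was singled out where its gap to the nearest other rat, over the range of the 5, exceeded 0.71 (Dixon's 95% value). Of 116 such groups of 5 among the named probe sets 10 were singled out, where chance gives about 1 in 20.

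For Car8, replicate 4 of the 3:1 high-isoflavone diet stood high at 5.37, against 4.68 to 4.73 in the other 4 rats. For Car5b at its dimmer probe set, replicate 5 of the same diet was high at 3.85 (others 2.98 to 3.13), and for Car11 at its dimmest probe set its replicate 1 was low at 1.69 (others 2.08 to 2.24).

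Replicate 4 of the 1:1 high-isoflavone diet was low for Car5a, at 3.73 (others 4.27 to 4.48), and for Car7, at 2.07 (others 2.61 to 2.70). Replicate 2 of conventional soybean was low for Car5a, at 4.10 (others 4.53 to 4.67). Car14 at its brighter probe set was high in replicate 3 of conventional soybean, at 4.74 (others 4.36 to 4.42), and in casein replicate 3, at 4.19 (others 3.87 to 3.96).

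Among the context genes, Aldh1b1 was low in replicate 3 of conventional soybean, at 1.10 (others 3.0 to 3.68), and Acaca was low in casein replicate 1, at 5.73 (others 6.40 to 6.52).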

How the results depend on the processing

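Over 29 settings on the same probe set, Car3 exceeded casein by 0.97 to 1.31 on conventional soybean, 0.78 to 1.01 on the 3:1 and 0.82 to 1.16 on the 1:1 high-isoflavone diet, and Car8 by 0.50 to 0.66, 0.62 to 0.81 and 0.56 to 0.75. Car2 ranged over -0.07 to 0.16, -0.11 to 0.07 and -0.16 to -0.01. The second probe set of Car3 gave 1.69 on conventional soybean and 1.47 on the 1:1 diet, and that of Car2 gave -0.28 and -0.41.

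With the replicate number as a block, the correlation of Car3 and Car8 was 0.46 (permutation p = 0.0388). That p was not adjusted over the pairs of genes. The permutations ran within diets and did not keep the block, so nothing is read from that p. With the same block the 3:1 diet had 23 calls and 1 among male-predominant genes. The block moved no other count by over 1.5 times, and the labels do not say that a number marks a shared batch. Same-numbered rats correlated above 0.1 in 12 of 30 pairs, where differently numbered rats of different diets did in 16 of 120. All 6 pairs of number 1 did so (r 0.203 to 0.401), against 6 of the 24 pairs of the other numbers, and 7 of 20 rats correlated best with their own number. The numbers were therefore not taken to pair the rats, and why number 1 differs was not tested.

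The count of other carbonic anhydrases called on conventional soybean was 0 after quantile normalization, after centring and scaling and without the 2 higher-floor arrays, and 0 to 2 over single omissions. On the 1:1 diet it was 1 after centring and scaling, and 0 to 2 over single omissions. Among the context lists on conventional soybean, the transporters had 0 calls after quantile normalization, after centring and scaling, with only the compared arrays, without the trend and without the higher-floor arrays. The male-predominant genes had 0 after centring and scaling and without the higher-floor arrays, and 1 without the trend or without number 1 of all groups. The periportal genes had 0 with only the compared arrays, without the trend, without the higher-floor arrays and without number 1, the pericentral genes 1 after centring and scaling, and the bicarbonate-using enzymes 1 without the higher-floor arrays. On the 1:1 diet the male-predominant genes had 1 after centring and scaling, and these, the bicarbonate-using and the periportal genes 1 each without the higher-floor arrays. On the 3:1 diet the periportal genes had 1 with only the compared arrays. The cause of these changes was not tested.

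Over all probe sets, calls on conventional soybean numbered 114 without the higher-floor arrays and 120 to 499 over single omissions, where 453 is the count from all arrays. On the 1:1 diet they numbered 312 without the higher-floor arrays, 380 without number 1 and 296 to 716 over single omissions (613 from all). The 3:1 diet (11) had 7 after quantile normalization, 6 after centring and scaling, 5 with only the compared arrays, 3 without the trend, 4 without the higher-floor arrays, 6 without number 1 and 1 to 26 over single omissions. Between the 1:1 diet and conventional soybean (21) there were 13 after centring and scaling, 12 with only the compared arrays, 13 without number 1 and 11 to 31 over single omissions. Dim probe sets such as those of Car2, near or below the median signal, limit what can be read.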
